A study of Homo sapiens with 2 samples.

Results

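POGK and 9 further human genes that descend from DNA transposons (POGZ, TIGD1, TIGD2, TIGD5, TIGD6, TIGD7, JRK, THAP9 and CENPB) were followed in a list of RNA regions recovered with YTHDF3. The members were the list entries whose gene name equals one of these 10 names. All 10 genes had an entry, with 19 peaks between them, out of 18466 peaks in 9268 genes. POGK was the starting point because its fold enrichment was the highest in the list, and the other 9 were joined to it as genes of like origin, so the values that follow are a description and were not tested.

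The cells were KYSE30, a line established from a human squamous cell carcinoma of the esophagus, untreated and grown with 10% serum. An antibody to YTHDF3, a cytoplasmic protein that reads the RNA modification N6-methyladenosine, was used for RNA immunoprecipitation (RIP). The study asked which transcripts YTHDF3 binds, from 1 RIP library and 1 input library of the same untreated cells. No replicate error exists for any value, no control antibody library was analysed here, and the depth of the libraries is unknown. Fold enrichments (RIP over input), p and adjusted p are the authors' own values for each peak, and a p compares the reads of these 2 libraries. Of 10 squamous epithelium markers 7 had a peak, among them TP63, SOX2 and DSP, while KRT6A, KRT17 and PKP1 were not listed. Of 10 markers of immune cells, fibroblasts and endothelium 4 had a peak, and only CSF1R had any with an adjusted p under 0.05. The share over all protein-coding genes was 40.1%. The median best fold enrichment was 5.02 over the squamous markers with a peak. It was 10.015 over those of immune cells and 8.765 over those of fibroblasts and endothelium. A peak list does not measure expression.

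DNA transposons move by a transposase, an enzyme that binds the element's ends and cuts them out. Host genomes have kept some transposase genes after the rest of the element decayed, and many of the resulting proteins still bind DNA but no longer cut it. The pogo and Tigger elements gave rise to POGK, POGZ, CENPB, JRK and the TIGD genes, whereas THAP9 is related to the P element of Drosophila. CENPB binds a short motif in the satellite DNA of centromeres, POGZ works with heterochromatin proteins in dividing cells, and THAP9 is an exception that can still mobilise DNA.

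The best peaks of the 10 genes ran from a fold enrichment of 5.02 in THAP9 to 87.8 in POGK, with a median of 13.3. The median of all peaks in the list was 5.02, with quartiles of 2.76 and 8.78. Taking only the best peak of each gene with a peak, as for the members, the median was 7.53. The order from the top was POGK, TIGD5 (40.1), JRK (16.3), TIGD6 (15.1), TIGD2 (14.1), TIGD7 and POGZ (12.5 each), CENPB (11.6), TIGD1 (7.24) and THAP9. From JRK to CENPB the best values spanned only 11.6 to 16.3. Without replicates, whether neighbours in that order differ was not tested.

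**Figure D1:**
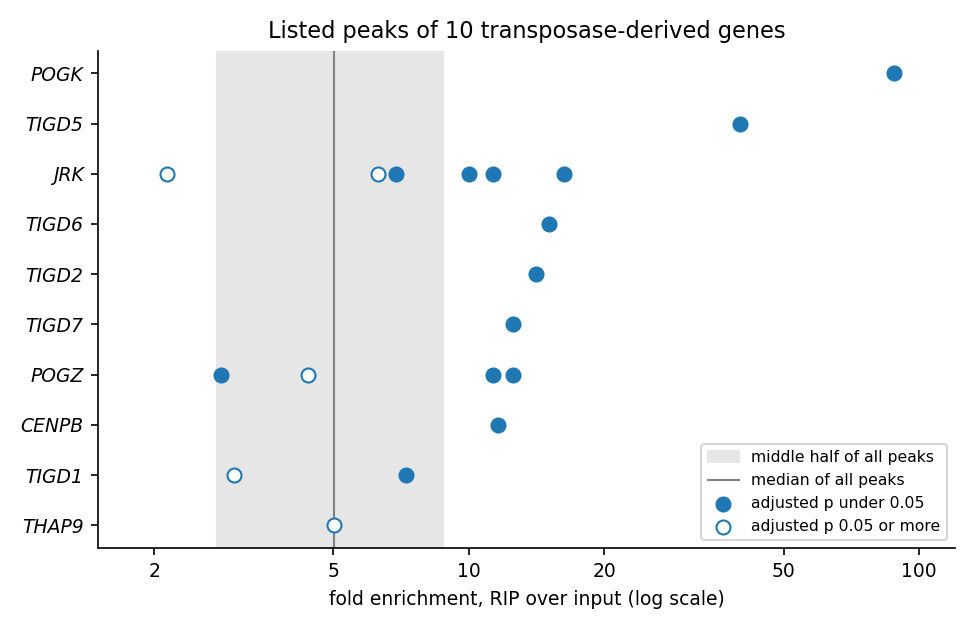
Fold enrichment of RIP over input (log scale) for each of the 19 peaks of the 10 genes, ordered by best peak; filled points have an adjusted p under 0.05, and the grey band and line give the quartiles and median of all 18466 peaks. POGK at 87.8 and TIGD5 at 40.1 lie to the right of every other point, and JRK and POGZ spread over several peaks.

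Of 19970 protein-coding genes (those of chromosome Y and of mitochondria left out), 40.1% had a peak, which is the background for the 10 of 10 here, and nothing is read from that difference because the genes were chosen from the list. Among protein-coding genes in the length range of the members the share was 39.4%. At an adjusted p under 0.05, 9 of the 10 genes had a peak, against 34.0% of protein-coding genes, and THAP9 was the exception. Counting peaks at or above the median fold enrichment, it was 10 genes against 28.7%, with THAP9 included because its 5.02 equals that median. With the 10% of peaks with the smallest p it was POGK, CENPB, POGZ and TIGD2 against 7.99%. Counting only peaks that overlap no other gene's peak it was 7 genes against 35.4%, and 9 against 37.7% when less than 50% of the region might be shared. Of the 10 best peaks, 8 were at or above 7.53, the median best value over genes with a peak (55.0% of those genes were), and 3 were at or above 16.3 (11.2%).

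The regions listed for POGK, TIGD6, TIGD7 and JRK ran past the annotated start of the gene, by 28, 483, 275 and 27 bases. The bases just before the start are shown for POGK, TIGD6 and TIGD7, and those of JRK are not shown here. The bases are from RefSeq (GRCh38.p14), read 5′ to 3′ on the strand of the gene and end at the base before its start. For POGK (plus strand, chr1:166839325-166839474) capitals mark the 28 bases that lie inside the POGK peak. For TIGD6 (minus strand, chr5:150000655-150000738) and TIGD7 (minus strand, chr16:3305431-3305496) the lines hold every base between the start of the gene and that of its neighbour on the other strand, and capitals mark bases inside the peaks of both genes.
POGK: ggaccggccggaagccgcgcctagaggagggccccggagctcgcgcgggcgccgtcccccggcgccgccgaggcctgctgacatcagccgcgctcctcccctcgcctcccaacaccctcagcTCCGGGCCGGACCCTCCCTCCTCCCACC
TIGD6: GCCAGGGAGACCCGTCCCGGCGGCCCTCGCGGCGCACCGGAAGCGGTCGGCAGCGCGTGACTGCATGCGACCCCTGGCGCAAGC
TIGD7: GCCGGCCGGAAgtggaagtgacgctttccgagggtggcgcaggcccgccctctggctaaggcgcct
All 84 bases of the TIGD6 stretch lay in peaks of both strands, whereas only the 11 bases farthest from TIGD7 did so in the TIGD7 stretch.

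POGK (gene ID 57645) joins a KRAB domain, the repressor domain of many zinc finger proteins, to a pogo transposase. Its single peak lay on the plus strand of chromosome 1 from 166839447 to 166854607, a region of 15161 bases. The region began 28 bases before the annotated start of the gene, ended 1752 bases before its 3' end and covered 89.6% of the gene, introns included. The fold enrichment was 87.8 and the p was listed as 0. In all, 147 peaks had a p listed as 0, and their fold enrichments ran from 1.37 to 87.8 with a median of 8.78. The second highest of them was 43.4, well below POGK. No other peak overlapped the POGK region. TADA1, which lies 150 bases past the 3' end of POGK on the other strand and codes for a subunit of a histone acetyltransferase complex, was without a listed peak, as was the neighbour FAM78B on the other side.

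The genes most like POGK in this list, taken as those with 1 peak and the nearest best fold enrichment on the log2 scale, were MARCHF9 (79.0), FAM20B (77.8) and E2F2 (66.5). Their distances from POGK were 0.15, 0.17 and 0.40 on that scale. None of their p values was listed as 0. The likeness rests on a single value per gene from the same 2 libraries.

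POGZ (gene ID 23126) couples zinc fingers to a pogo transposase and binds heterochromatin protein 1. It had 4 peaks on the minus strand of chromosome 1, which together covered 69.1% of its 56771 bases. From the 3' end of the gene, the first peak (151402724 to 151404193) had a fold enrichment of 11.3 and the second (151404313 to 151427655) one of 12.5 with an adjusted p of 4e-59. The third (151427925 to 151428135) had 4.39 with an adjusted p of 0.26, and the fourth (151428195 to 151442416) 2.82 with an adjusted p of 0.00095. The values were thus higher in the part of POGZ nearest its 3' end and lower upstream, and no region was listed in the 17078 bases nearest its 5' end. The gaps between the peaks were 119, 269 and 59 bases, so the 4 entries lie nearly end to end. The proteasome gene PSMB4 beside the 3' end of POGZ had no peak, and the tight junction gene CGN on the other side had a best fold enrichment of 7.53.

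CENPB (gene ID 1059) had 1 peak on the minus strand of chromosome 20 from 3783851 to 3786690. It covered 98.3% of a gene of 2890 bases, from the annotated 3' end to within 50 bases of the 5' end. The fold enrichment was 11.6 and the p was listed as 0, as for POGK. By fold enrichment CENPB was below the members' median of 13.3, with only TIGD1 and THAP9 lower. A p listed as 0 for both does not tell whether CENPB and POGK differ by p. Of the 147 peaks with a p of 0, 45 had a higher fold enrichment than CENPB. CDC25B, a phosphatase gene that starts 210 bases away on the other strand, had a best fold enrichment of 5.02, and SPEF1 on the other side had no peak.

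JRK (gene ID 8629), whose mouse counterpart is named for the seizures of jerky mutants, encodes a protein related to CENPB. It had 6 peaks on the minus strand of chromosome 8 between 142657639 and 142669994, which covered 39.4% of its 26286 bases. Read from the 5' end, the fold enrichments were 11.3, 10.0, 2.13, 6.27, 16.3 and 6.90. The highest value, 16.3 (142658238 to 142659793), had a p of 0.00021, whereas the smallest p, 2e-15, belonged to the region at the 5' end (142663442 to 142669994) with 11.3. That p of 0.00021 was the largest listed for any of the 216 peaks with a fold enrichment of 16.3, and 73 of them shared it. Hence the JRK value of 16.3 stood at the weak edge of its level, and the place of JRK behind TIGD5 rests on that value. No region was listed in the 13957 bases nearest the 3' end. Of the 6 peaks, 4 had an adjusted p under 0.05. The neighbours ARC and PSCA had no peak.

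**Figure D2:**
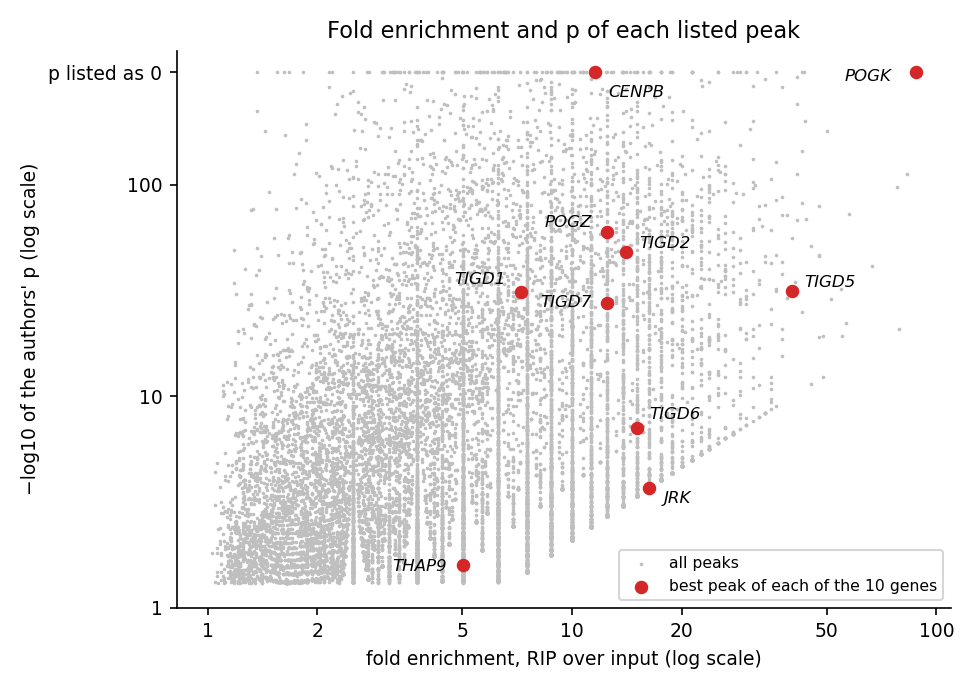
Fold enrichment (x, log scale) against −log10 of the authors' p (y, log scale, with peaks whose p is listed as 0 drawn at the top) for all 18466 peaks in grey and the best peak of each of the 10 genes in red. POGK and CENPB lie on the top line at 87.8 and 11.6, while JRK at 16.3 and THAP9 at 5.02 lie at or near the lower edge of the cloud.

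The TIGD genes are named for the Tigger element, and the functions of most of their proteins are little studied. TIGD5 (gene ID 84948) had the second highest value, 40.1 with an adjusted p of 1e-30, over 2516 bases of chromosome 8 from 143597835 to 143600350 on the plus strand. The region began 4 bases after the start of the gene and covered 46.6% of it, leaving the 2874 bases nearest the 3' end without a listed region. Among all genes with a peak, TIGD5 ranked 33rd by best fold enrichment. However, 67.8% of its region overlapped a peak listed on the minus strand under the name of EEF1D, a translation elongation factor subunit. That peak (143597585 to 143599541) had a fold enrichment of 9.20 (adjusted p of 1.5e-06). EEF1D starts 415 bases from TIGD5 in the opposite direction, so the peak under its name lay wholly before the annotated start of EEF1D. PYCR3, which meets the 3' end of TIGD5, had a best fold enrichment of 8.78 outside the TIGD5 region. Whether the reads kept the strand is not given in the sources used here, so the share of the reads of each gene in the overlap was not tested.

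TIGD6 (gene ID 81789) had 1 peak of 8020 bases on the minus strand of chromosome 5 from 149993118 to 150001137, enriched 15.1-fold with an adjusted p of 5.4e-07. The region covered the whole gene and ran 483 bases past its start, through the 84 bases printed above and into HMGXB3. Of the TIGD6 region, 13.6% overlapped the HMGXB3 peak (8.78) and 4.21% that of SLC26A2, a sulfate transporter gene (8.36), both on the plus strand. TIGD6 thus shared both its ends with listed regions of the other strand. The overlap with the SLC26A2 peak lay past the annotated end of SLC26A2, which is 5717 bases from TIGD6. The HMGXB3 peak began before the annotated start of HMGXB3, inside TIGD6. As for TIGD5, whether the reads kept the strand is not given in the sources used here.

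TIGD7 (gene ID 91151) had 1 peak of 6874 bases on the minus strand of chromosome 16 from 3298832 to 3305705, enriched 12.5-fold with an adjusted p of 4e-27. It covered 99.6% of the gene and ran 275 bases past the start. Of the region, 37.4% overlapped a peak of the zinc finger gene ZNF263 that also had a fold enrichment of 12.5, and 3.20% overlapped one of ZNF75A at 8.78. The 3 genes lie so close that their regions form one chain on alternating strands.

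TIGD2 (gene ID 166815) had 1 peak on the plus strand of chromosome 4 from 89111500 to 89114899, enriched 14.1-fold with an adjusted p of 5e-47. It covered 91.1% of the gene, from 331 bases after the start to 2 bases before the 3' end. No other peak overlapped it, and the nearest protein-coding genes lay at least 53983 bases away. Of these, FAM13A had a best fold enrichment of 13.8 and GPRIN3 had no peak.

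TIGD1 (gene ID 200765) closely resembles Tigger elements still present in the genome, and how reads that fit several places were handled is not given in the sources used here. It had 2 peaks on the minus strand of chromosome 2. The larger (232547968 to 232550025) was enriched 7.24-fold with an adjusted p of 2.5e-30, and the smaller (232550085 to 232550443) 3.01 with an adjusted p of 0.078. The smaller peak lay nearer the 5' end, 59 bases from the larger. Of it, 99.2% overlapped a peak listed under the name of EIF4E2, a cap-binding protein gene on the plus strand (3.76). That peak (232550052 to 232550440) lay inside annotated TIGD1 and wholly before the start of EIF4E2, which is 131 bases from that of TIGD1. The 4085 bases nearest the 3' end, where the acetylcholine receptor gene CHRNG overlaps TIGD1 (best fold enrichment 7.53), had no region listed for TIGD1.

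THAP9 (gene ID 79725) had the weakest entry. Its single peak ran on the plus strand of chromosome 4 from 82900752 to 82906447, with a fold enrichment of 5.02, a p of 0.025 and an adjusted p of 0.15. It began 17 bases after the start of the gene and covered 29.6% of it. The same fold enrichment was listed for 951 peaks, and 121 of them had the same p as well. THAP9 was the only one of the 10 genes with no peak under an adjusted p of 0.05. Its neighbours SEC31A, which starts 165 bases away on the other strand, and LIN54 had best fold enrichments of 3.76 and 5.02.

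**Figure D3:**
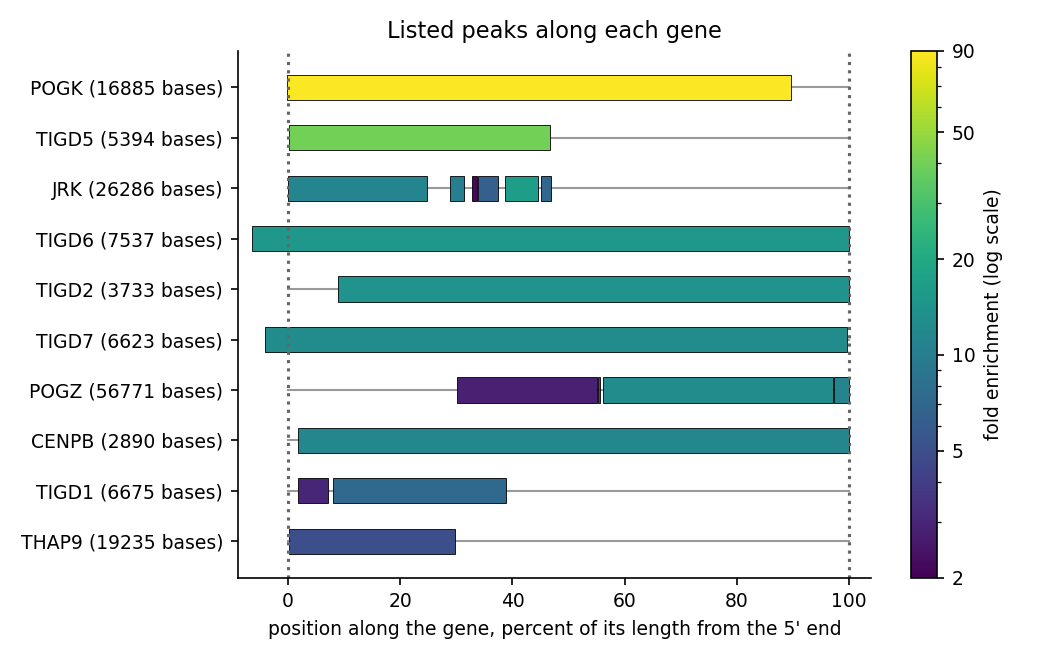
Position of each listed peak along the 10 genes, in percent of the genomic gene length from the 5' end, coloured by fold enrichment (log scale). Regions of TIGD6, TIGD7 and CENPB fill 98.3% or more of the gene. Those of TIGD1, TIGD5, JRK and THAP9 lie in the 5' part, and those of POGZ lie toward the 3' end.

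Regions reached the 5' end of the gene (within 100 bases, or past it) in 7 of the 10 genes: POGK, TIGD5, TIGD6, TIGD7, JRK, THAP9 and CENPB. The share over all protein-coding genes with a peak was 46.3%. The 3' end was reached in 5 genes, POGZ, TIGD2, TIGD6, TIGD7 and CENPB, against 32.1%. Both ends were reached in TIGD6, TIGD7 and CENPB, which have lengths of 2890 to 7537 bases. In the same length range, TIGD5 (5394 bases) reached only the 5' end, TIGD2 (3733) only the 3' end and TIGD1 (6675) neither. The share of all genes that reached both ends was not computed. A single peak was listed for 7 of the 10 genes, against 43.9% of protein-coding genes with a peak. Spans ran from 210 to 23343 bases, and since they were measured on the genome with introns included, they do not tell which exons held reads. Of the 19 peaks, 14 had an adjusted p under 0.05 (73.7%, against 74.4% of all peaks) and 4 overlapped a peak of another gene (21.1%, against 18.1%). Both shares were near those of the whole list.

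The same question was put to 41 further human genes derived from DNA transposons, drawn from general knowledge with results of this list already known. Of these, 37 had a peak (90.2%, exact 95% interval 76.9 to 97.3, counting error only), beside the 40.1% of protein-coding genes. At an adjusted p under 0.05 it was 34 genes. The median best fold enrichment of the 37 genes was 10.0, 27 of them were at or above the median of 7.53 for genes with a peak, and 10 exceeded the median of 13.3 found for POGK and its 9 relatives. In 11 of the 37 the best peak overlapped a peak of another gene. These were THAP3, THAP7, THAP8, THAP11, PGBD1, PGBD3, ZBED1, ZBED6, ZNF862, ZMYM4 and KCTD1. The exceptions without a peak were THAP6, PGBD5, GTF2IRD2 and RAG2. Expression was not measured, so how far a peak reflects that a gene is transcribed in these cells was not tested.

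The closest relatives of the members were all on the list, TIGD3 at 12.5, TIGD4 at 11.3 and JRKL at 8.96, inside the range of the other TIGD genes. Of the P element relatives 10 of 11 had a peak, from THAP10 at 2.51 (adjusted p of 0.13) to THAP11, a regulator of stem cell growth in mice, at 11.9. Between them lay THAP1, the gene of a form of dystonia, at 3.76, THAP5 at 5.02, THAP7 at 7.31, THAP4 at 7.78, THAP2 at 8.78, THAP3 and THAP8 at 10.0 and THAP12 at 10.1. THAP9 at 5.02 was thus in the lower part of its own family.

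Of the piggyBac relatives, PGBD4 reached 17.6, PGBD1 15.1, PGBD2 13.8 and PGBD3, which lies within the repair gene ERCC6, 8.78. Among hAT relatives ZBED1 led with 27.6, in a region that a further gene's peak overlapped, followed by ZBED4 (20.4), ZBED2 (12.5), ZBED9 (8.78), ZNF862 (8.16), ZBED6 (7.71), ZBED3 (7.53), ZBED8 (7.21), ZBED5 (7.03) and GTF2IRD2B (3.76). The best peaks of ZBED9, ZBED3 and GTF2IRD2B had adjusted p values of 0.11, 0.25 and 0.078. GTF2IRD2B has a near-identical copy in GTF2IRD2, so the absence of one and presence of the other is uncertain. HARBI1, from a Harbinger transposase, and its DNA-binding partner NAIF1 stood at 23.8 and 21.3. SETMAR, a fusion of a histone methyltransferase and a mariner transposase, stood at 25.1, and RAG1 of the antigen receptor recombinase at 10.0. Among Crypton relatives, KIAA1958 reached 23.8, ZMYM4 15.1 and QRICH1 13.2, while KCTD1, ZMYM3 and ZMYM2 had 6.27, 3.76 and 3.49. The best peak of ZMYM3 had an adjusted p of 0.13. None of these 37 reached the 40.1 of TIGD5 or the 87.8 of POGK.

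**Figure D4:**
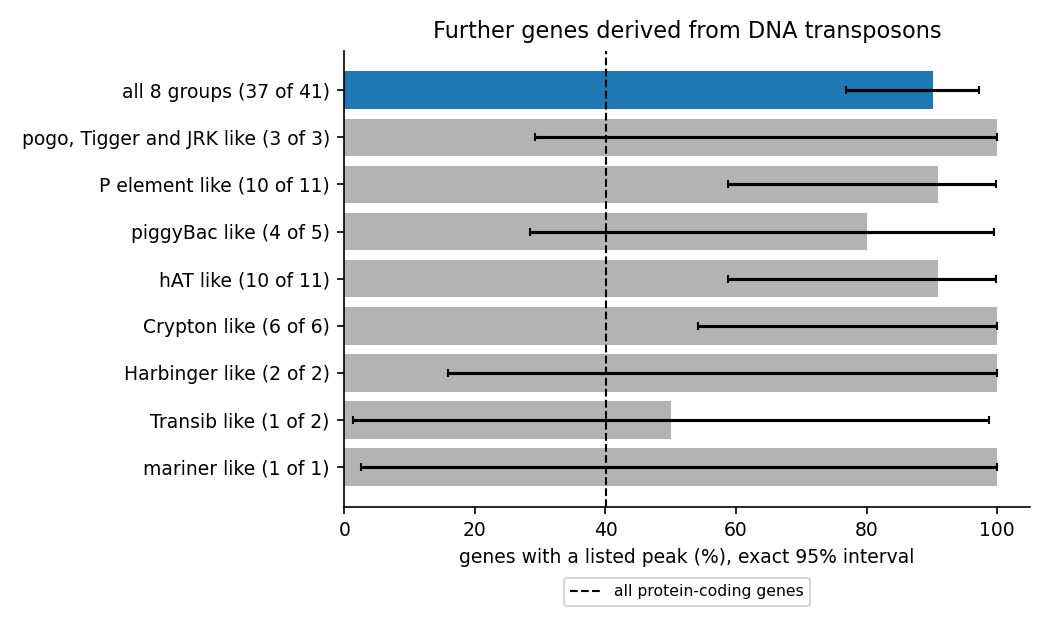
Share of genes with a listed peak in 8 groups of further genes derived from DNA transposons, by the element they descend from, and over all 41 (blue); error bars are exact 95% intervals that cover counting error only, and the dashed line is the 40.1% of all protein-coding genes. The share over all groups is 90.2%, and groups of 1 to 5 genes have intervals that span the dashed line. The genes were drawn with results of this list known, so no interval is a test against the line.

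Genes for proteins that work with the members were also looked up. TRIM28, the corepressor recruited by KRAB domains such as that of POGK, had 3 peaks with a best fold enrichment of 1.88. The heterochromatin protein 1 genes CBX5 and CBX3 had no peak, and CBX1 had 3.76 with an adjusted p of 0.071. Of the other genes listed with POGZ, the zinc finger genes ADNP2 and ADNP reached 15.9 and 12.5 and CHAMP1 10.0, close to the 12.5 of POGZ, while MAD2L2 had no peak. At the centromere, where CENPB acts, CENPC had a best fold enrichment of 12.5, and the centromeric histone gene CENPA had no peak. In all, 5 of the 8 genes listed with POGK and POGZ had a peak, beside the 40.1% of protein-coding genes.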

How the data were processed

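The data were 1 peak list that the authors made from a YTHDF3 RIP library and an input library of KYSE30 cells. Per the labels' protocols, RNA was fragmented, primed with random hexamers and tagged with molecular identifiers. Per the file headers, each peak carries a fold enrichment (a ratio), a p-value and an adjusted p-value. The build is hg38, per the submitters' processing notes. The sources used here do not name the aligner, peak caller, thresholds or strand handling. Listed p-values reached 0.049 and adjusted p-values 0.335. No counts were used, so depth is unknown and no fold enrichment has an error.

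Starts were taken as counted from 0 and are printed counted from 1. File names were matched to a RefSeq table (GRCh38.p14) on the same chromosome within 100000 bases: 16533 peaks by symbol, 762 by older symbol, 23 as dates, and 1148 unmatched. Matching and overlap were tested on simulated data. Python 3.11.15, pandas 2.3.3 and SciPy 1.17.1 were used. The members, gene lists and comparisons were chosen with earlier results of these data known. Every member was named, as were the further genes by the lists' rule, apart from a gene not reported here. Alternatives were stricter peak thresholds, overlap rules, older symbols and other summaries per gene. No test was run.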

Additional observations from a re-analysis of the deposited data

How the results depend on the processing

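All 10 genes kept a peak with at least the median fold enrichment and with older symbols, 9 did at an adjusted p under 0.05 and with under 50% of the region shared, and 7 without any overlap with another gene's peak. THAP9 met the median fold enrichment only by equalling it, at 5.02. With only the 10% of peaks with the smallest p the count was 4. The median best fold enrichment of 13.3 became 12.5 with each gene's peak of smallest p, 12.05 with the median over its peaks, and 14.1 at an adjusted p under 0.05 (9 genes). By the median over peaks, JRK stood at 8.45, POGZ at 7.845 and TIGD1 at 5.125. The share of the 41 further genes was 34.1% with the 10% of peaks with the smallest p, 65.9% without overlapping peaks and 100% over the 3 pogo and TIGD relatives alone. The share of protein-coding genes moved with them, to 34.0% at an adjusted p under 0.05, 28.7% at the median fold enrichment, 7.99% by smallest p and 35.4% without overlapping peaks. Fewer peaks enter each of these, which by construction lowers a share. No paired analysis was possible because there is 1 library of each kind. Unknown depth limits every value.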

Other observations

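Of the 10 genes, 6 lie head to head with a protein-coding gene on the other strand, with 66 to 415 bases between the 2 starts: TIGD7 with ZNF75A, TIGD6 with HMGXB3, TIGD1 with EIF4E2, THAP9 with SEC31A, CENPB with CDC25B and TIGD5 with EEF1D. All 6 neighbours had a peak (40.1% of protein-coding genes did), with best fold enrichments of 8.78, 8.78, 3.76, 3.76, 5.02 and 11.3. Strands came from the annotation or, where it gave none, from the peak list. EEF1D took its strand from the peak list, so it could be counted only because it had a peak. Over 17231 protein-coding genes with a strand from either source, 10.4% had such a neighbour within 1000 bases. The share was 12.4% over those with a peak and 27.5% over 40 of the further transposon-derived genes. Genes without a peak were left out where the annotation gave no strand, so these shares are not measured alike. PSCA, 329 bases from JRK, had no peak and no strand from either source, so it could not be counted. A peak named for a neighbour can lie before the start of that neighbour, as given above for EIF4E2 and EEF1D. In the 250 bases before the start, the 8 members with a RefSeq window had a median GC content of 71.2% (43.2 in POGZ to 81.6 in CENPB), against 62.4% over 15812 protein-coding genes. The letters GGACT, a form of the N6-methyladenosine motif, were found on either strand of the 300-base window (250 bases before the start and 50 after) in 3 of the 8, POGK, THAP9 and TIGD1, and in 45.8% of all windows. Most of that window lies before the annotated start and so outside the annotated RNA. On the strand of the gene in the 50 bases after the start, only TIGD1 of the 8 had the letters, against 4.82% of all windows.

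Of the 9 gaps between consecutive peaks of JRK, POGZ and TIGD1, 8 were at most 400 bases and 3 were exactly 59 bases. Over all genes, 45.7% of 9108 such gaps were at most 400 bases and 10.9% were 59 bases. Of the 19 fold enrichments, 11 were whole multiples of 1.2545 within the rounding of the list, as were 50.3% of all peaks. The POGK value was 70 times that step, that of TIGD5 32 times, and that of THAP9 4 times. CENPB, TIGD1 and TIGD2 were not on the step.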
